A study of Mus musculus with 34 samples.

Results

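Leptin (Lep) and 5 other secreted products of fat cells, adiponectin (Adipoq), resistin (Retn), adipsin or complement factor D (Cfd), retinol binding protein 4 (Rbp4) and haptoglobin (Hp), were followed at the RNA level in adipose tissue and heart of mice on 3 diets. The 6 genes were chosen by name. All 6 were among the 15145 genes of the adipose count table, and 5 of them were among the 13238 genes of the heart count table; Lep in heart was not analysed here. The libraries came from C57BL/6J mice labelled 20 to 22 months old. Control mice ate a diet with 10% of calories from fat. A second group ate a high-fat, high-calorie diet (HFCD) with 60% of calories from fat. The third group (HFCD+FMD) ate HFCD broken every 4 weeks by 5 days of a fasting mimicking diet (FMD), a short period of restricted intake, and from cycle 6 each FMD was followed by 2 days of control diet before HFCD resumed. All tissues were taken after 11 cycles, 4 days past the last FMD, so the HFCD+FMD libraries describe the refed state. Adipose tissue gave 3 control, 4 HFCD and 6 HFCD+FMD libraries, and heart gave 5, 5 and 4. The fat depot is not named in the labels, and nothing in them ties a library to an animal, so p-values measure the spread between libraries.

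Adipokines are hormones and plasma proteins released by adipose tissue. Leptin is made in proportion to fat stores and acts on the hypothalamus through the receptor Lepr to curb food intake, whereas adiponectin circulates at high concentration and acts on the liver and muscle through Adipor1 and Adipor2. Adipsin is the protease that starts the alternative complement cascade, retinol binding protein 4 carries vitamin A in plasma, resistin is an adipocyte hormone in mice that opposes insulin, and haptoglobin binds free haemoglobin and is an acute-phase protein made in liver and fat.

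Reads assigned to genes came to between 15604982 and 40831656 per adipose library and between 16848195 and 47859170 per heart library. The labelled tissues carried their own markers. All 15 adipocyte markers were measured in fat, with summed levels of 36207 to 56542 CPM (read counts scaled to a common library size with TMM factors) in control, 27355 to 33411 in HFCD and 22455 to 31668 in HFCD+FMD libraries. Macrophage markers (12 genes) summed to 372 to 1925, 2942 to 6020 and 1478 to 4415 CPM in the same order. Adipose control replicate 1 stood apart with a brown adipocyte marker sum of 371.6 CPM, against 51.0 to 115.1 in every other adipose library. Mitochondrially encoded genes took 12.6% to 29.3% of counts in adipose control libraries, 2.17% to 6.08% in HFCD and 2.20% to 7.47% in HFCD+FMD. Adipose HFCD+FMD replicate 4 and heart HFCD replicate 5 stood apart in the adipokines themselves and are described with each result. In whole tissue, fewer cells of a type and less RNA per cell cannot be told apart.

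The genes lie on 5 chromosomes of the GRCm38 assembly: Lep at chr6:29060220-29073877, Adipoq at chr16:23146536-23158028, Retn at chr8:3655770-3660110, Cfd at chr10:79890853-79892655, Rbp4 at chr19:38116629-38125281 and Hp at chr8:109575128-109579172. No annotated gene overlaps any of them. Promoter sequence was at hand from RefSeq (GRCm38.p6) for 5 of the 6 members, Hp being the exception. The 150 bases upstream of the start site are shown for Lep, which rose on HFCD, and for Rbp4, Retn and Cfd, which fell, so that the sequences of genes moving in opposite directions can be set beside each other; the sequences are in gene orientation, with motif matches in capitals.
Lep: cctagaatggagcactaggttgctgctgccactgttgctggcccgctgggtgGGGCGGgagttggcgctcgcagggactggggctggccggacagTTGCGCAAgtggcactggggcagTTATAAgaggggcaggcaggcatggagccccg
Rbp4: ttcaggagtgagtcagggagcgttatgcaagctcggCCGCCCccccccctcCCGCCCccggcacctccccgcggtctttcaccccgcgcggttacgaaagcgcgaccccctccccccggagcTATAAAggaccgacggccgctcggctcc
Retn: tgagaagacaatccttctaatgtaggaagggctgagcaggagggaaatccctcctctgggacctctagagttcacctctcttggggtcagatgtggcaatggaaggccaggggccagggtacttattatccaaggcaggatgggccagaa
Cfd: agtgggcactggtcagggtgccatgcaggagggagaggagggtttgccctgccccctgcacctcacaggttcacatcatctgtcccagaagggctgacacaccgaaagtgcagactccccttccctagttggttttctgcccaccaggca
These windows are chr6:29060071-29060220 (plus strand), chr19:38124812-38124961 (minus), chr8:3655620-3655769 (plus) and chr10:79890703-79890852 (plus). The 300-base RefSeq windows (250 bases before the start to 50 after) were searched on both strands. The motifs were the palindrome bound by C/EBP factors, spelled TTGCGCAA, the TATA box spelled TATAAA or, in its shorter and overlapping form, as TATAA, the box read by the factor NF-Y and spelled CCAAT, the GC box GGGCGG bound by Sp1, an E-box with the letters CACGTG, a cyclic AMP response element written TGACGTCA, and the direct repeat bound by PPAR factors, which is given by its name alone. The Lep window held TTGCGCAA at positions -55 to -48 from the start, a match present in 0.183% of the 32851 promoters searched. It also held TATAA at -31 to -27, overlapped by a reverse-strand match at -32 to -28, and GGGCGG at -98 to -93, which occur in 24.9% and 35.7% of promoters. The Rbp4 window held TATAAA at -28 to -23 (13.6% of promoters) and GGGCGG on the reverse strand at -114 to -109 and -99 to -94. Neither the Retn nor the Cfd window held any of these letters. The Rbp4 start shown lies inside the gene as placed above. A second RefSeq start of Rbp4, beside the annotated 5' end, is not shown. Its 300-base window (chr19:38125272-38125571) held CCAAT on the reverse strand at -162 to -158 and none of the other motifs. The Adipoq window held 3 CCAAT matches, at -34 to -30, -27 to -23 and -7 to -3 (37.4% of promoters hold 1 or more). A match describes letters only.

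In adipose tissue HFCD moved the adipokines in opposite directions. Lep and Hp rose, Retn, Cfd and Rbp4 fell, and Adipoq did not pass the test. Thus 5 of the 6 passed edgeR's quasi-likelihood test at an adjusted p below 0.05, where 30.0% of all 15112 genes tested did (15.7% higher, 14.2% lower). The 6 genes together had a median log2 fold change of -1.10, against -0.0014 over all genes. In the same comparison 6 of 15 adipocyte markers fell and none rose, and 10 of 12 macrophage markers rose and none fell. Mesothelial markers fell in 6 of 8 (median log2 fold change -2.10) and brown adipocyte markers in 3 of 8 (median -2.62), while 2 of 8 endothelial and 3 of 8 fibroblast and progenitor markers rose. The brown adipocyte sum was 371.6 CPM in control replicate 1, but 94.3 and 51.0 CPM in control replicates 3 and 5 and 90.8 to 104.7 CPM on HFCD. Of these 8 markers voom called 0. The part of these cell type markers in the adipokine differences was not tested.

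**Figure D1:**
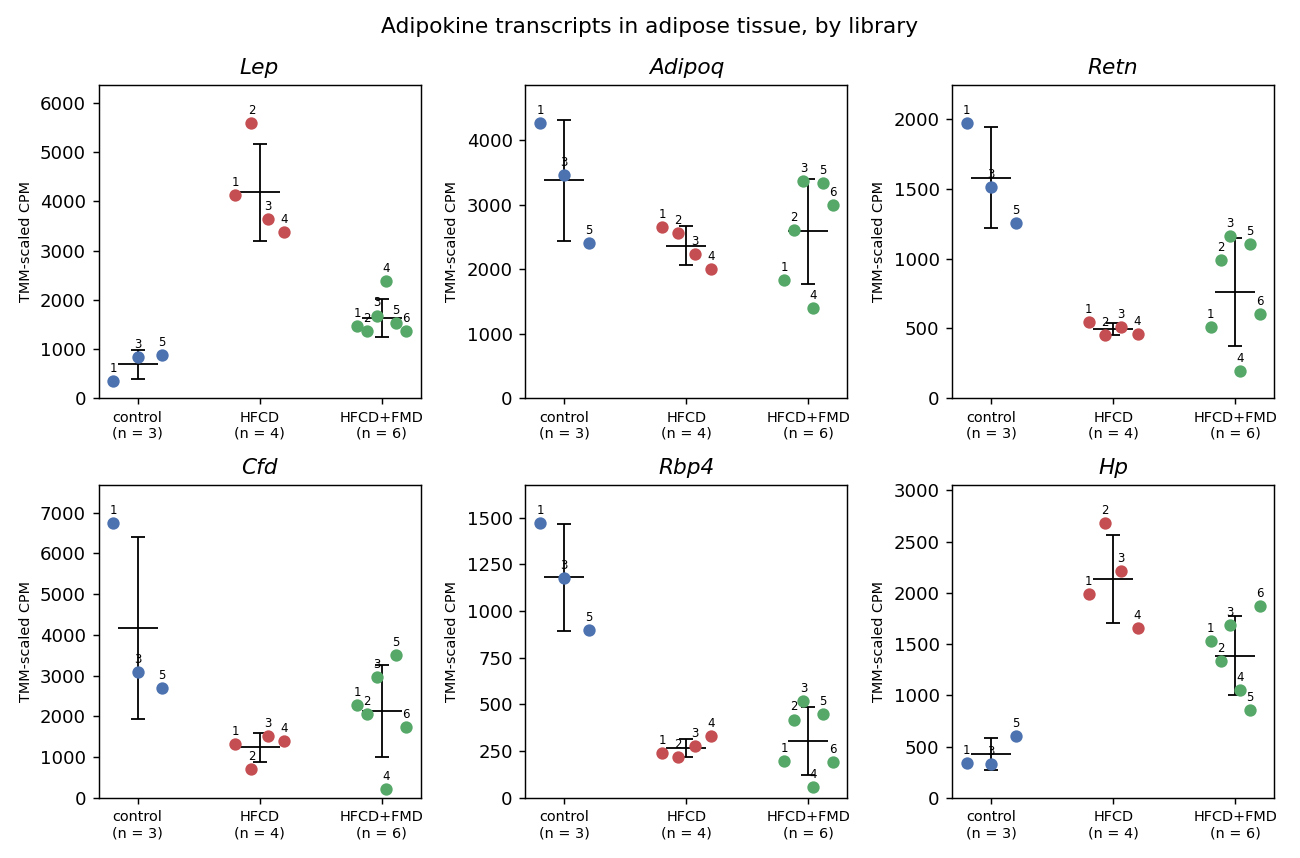
TMM-scaled CPM (vertical axis, linear from 0) of 6 adipokine genes in each adipose library, grouped by diet; numbers are replicate names, the black bar is the mean and its whiskers are 1 SD. Lep and Hp are higher in every HFCD library than in any control library, whereas Retn, Cfd and Rbp4 are lower, and HFCD+FMD replicate 4 is the lowest library for Cfd, Retn, Rbp4 and Adipoq.

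Leptin was the member with the largest rise. Control libraries held 351, 837 and 871 CPM of Lep, and HFCD libraries held 4132, 5587, 3638 and 3368. The lowest HFCD library was thus several times the highest control library and the diets did not overlap (39.5% of all genes did not overlap between these diets). Means were 686 ± 291 (SD, n = 3) and 4181 ± 989 (SD, n = 4) CPM, which edgeR fitted as a log2 fold change of 2.61, with an SE of 0.33 and an adjusted p of 0.000564.

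Haptoglobin also rose. Hp was at 341, 325 and 604 CPM in control libraries and at 1990, 2680, 2209 and 1657 CPM in HFCD libraries, again without overlap. The log2 fold change was 2.33 (SE 0.31, adjusted p = 0.000696, edgeR).

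Adiponectin stayed the most even of the 6. Adipoq was measured at 4261, 3466 and 2400 CPM in control libraries and at 2657, 2559, 2242 and 1996 CPM in HFCD libraries. Control replicate 5 lay within the HFCD range, so the diets overlapped. The log2 fold change of -0.51 (SE 0.30) had an adjusted p of 0.204 by edgeR, and its size stayed between -0.71 and -0.30 in every fit that left out 1 library.

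Resistin, adipsin and retinol binding protein 4 were each lower in every HFCD library than in any control library. Retn was at 1969, 1515 and 1252 CPM on the control diet and at 545, 453, 510.4 and 460.2 CPM on HFCD. The 4 HFCD libraries lay close together, with an SD of 43.4 CPM around a mean of 492. Its log2 fold change was -1.68 (SE 0.44, adjusted p = 0.0143, edgeR), and without control replicate 1 it was -1.48 with an adjusted p of 0.0595.

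Rbp4 had the largest fall. It was measured at 1470, 1175 and 896 CPM in control libraries and at 239, 217, 278 and 328 CPM in HFCD libraries. The log2 fold change was -2.15 (SE 0.53, adjusted p = 0.0106, edgeR). The call held in all 13 fits that left out 1 library, with a highest adjusted p of 0.0427.

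Cfd varied most among controls, at 6741, 3088 and 2688 CPM, and was at 1316, 710, 1519 and 1392 CPM on HFCD. The groups did not overlap, and control replicate 1 was far above the other controls. The log2 fold change was -1.76 (SE 0.63) and its adjusted p was 0.0493 (edgeR), just past the threshold. The call was lost without control replicate 1 (log2 fold change -1.22, adjusted p = 0.219), without control replicate 3 (0.0683), without any 1 of the 4 HFCD libraries (0.0720 to 0.119) and without HFCD+FMD replicate 1, 2, 3 or 6 (0.0560 to 0.0628). It was lost too with age as a covariate (0.0709), with the deposited log2 values (0.102) and with voom (0.0999).

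The same contrast seen within each library, as a ratio to Adipoq that no library scaling can change, gave the following descriptions. Per kilobase of exon, Lep was 0.0339, 0.0994 and 0.149 times Adipoq in control libraries and 0.640, 0.899, 0.668 and 0.695 times in HFCD libraries. Hp ran from 0.0688 to 0.216 times Adipoq on control diet and from 0.644 to 0.900 on HFCD. Both ratios were therefore higher in all 4 HFCD libraries than in any control. Rbp4 went from 0.348 to 0.384 times Adipoq in control libraries to 0.0870 to 0.169 in HFCD libraries, and Retn from 0.382 to 0.456 to 0.155 to 0.202. Cfd ran from 1.33 to 2.37 times Adipoq in control libraries and from 0.416 to 1.04 in HFCD libraries. None of these 3 ratios overlapped between the diets either. By CPM 39.5% of all genes did not overlap between these diets, and the share for ratios to Adipoq was not worked out. In these libraries Retn, Cfd and Rbp4 were lower on HFCD relative to another adipocyte product as well as per library.

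**Figure D2:**
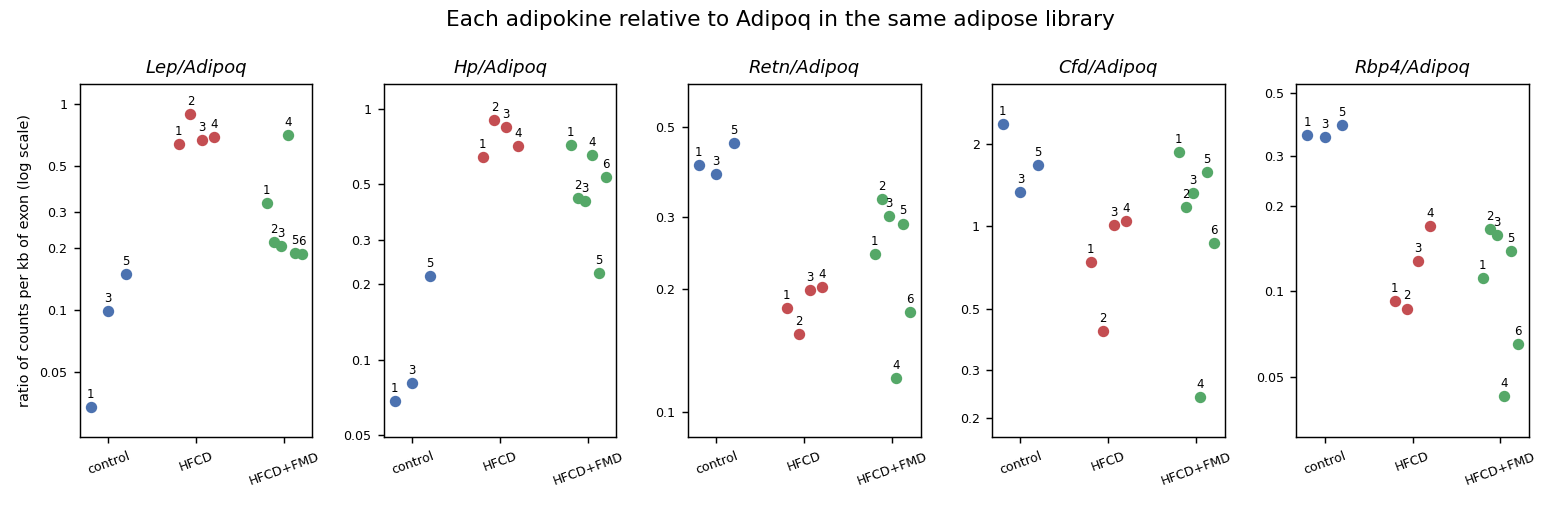
Ratio of each adipokine to Adipoq in the same adipose library, in counts per kilobase of exon (vertical log axes that differ between panels), by diet; each point is a library with its replicate name. Lep/Adipoq lies between 0.640 and 0.899 in HFCD libraries and between 0.189 and 0.331 in 5 of the 6 HFCD+FMD libraries, with replicate 4 at 0.706.

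These shifts rearranged the order of the 6 transcripts by level per kilobase. In control fat Cfd led at 4525 ± 2422 CPM per kb (SD, n = 3), followed by Adipoq (2444), Retn (1000), Rbp4 (879), Hp (264) and Lep (205). Retn and Rbp4 overlapped in that order, as did Hp and Lep, and Cfd and Adipoq. In HFCD fat the order was Adipoq (1711 ± 219, n = 4), Cfd (1339), Hp (1329) and Lep (1247), whose libraries all overlapped, and then Retn (312) and Rbp4 (198), which did not overlap. In HFCD+FMD fat the order was Cfd (2308 ± 1230, n = 6), Adipoq (1873), Hp (864), Lep (487), Retn (481) and Rbp4 (228), with each neighbour overlapping the next. Lep thus had the lowest mean of the 6 on control diet, where it overlapped with Hp, and was level with Cfd and Hp on HFCD.

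Adding FMD cycles to HFCD was followed by no adipokine passing the test in adipose tissue. None of the 6 passed edgeR's test (0.205% of all genes did), and 2 of the 6 (Lep and Hp) had an unadjusted p below 0.05 (11.2% of all genes). DESeq2 and voom with quality weights each called 1 of the 6 (2% and 3.12% of all genes), and voom called 0 (0.397% of all genes). Lep came closest.

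Across the 6 HFCD+FMD libraries Lep had a lowest value of 1363, a median of 1503 and a highest value of 2386 CPM. Even the highest, replicate 4, lay below the lowest HFCD library at 3368 CPM, a separation that 1.95% of all genes showed in this direction. The mean was 1634 ± 386 CPM (SD, n = 6), 0.391 times that of HFCD. The log2 fold change was -1.36 (SE 0.25), with an unadjusted p of 0.000128 and an adjusted p of 0.0553 (edgeR). In 25 fits of these data it lay between -1.18 and -1.5, and its adjusted p between 5.67e-05 (DESeq2) and 0.24 (without HFCD replicate 2). It passed without control replicate 1 (0.0141), without HFCD+FMD replicate 4 (0.0237), with age as a covariate (0.0457), in a fit of these 2 diets alone (0.0229) and with voom quality weights (0.0159).

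**Figure D3:**
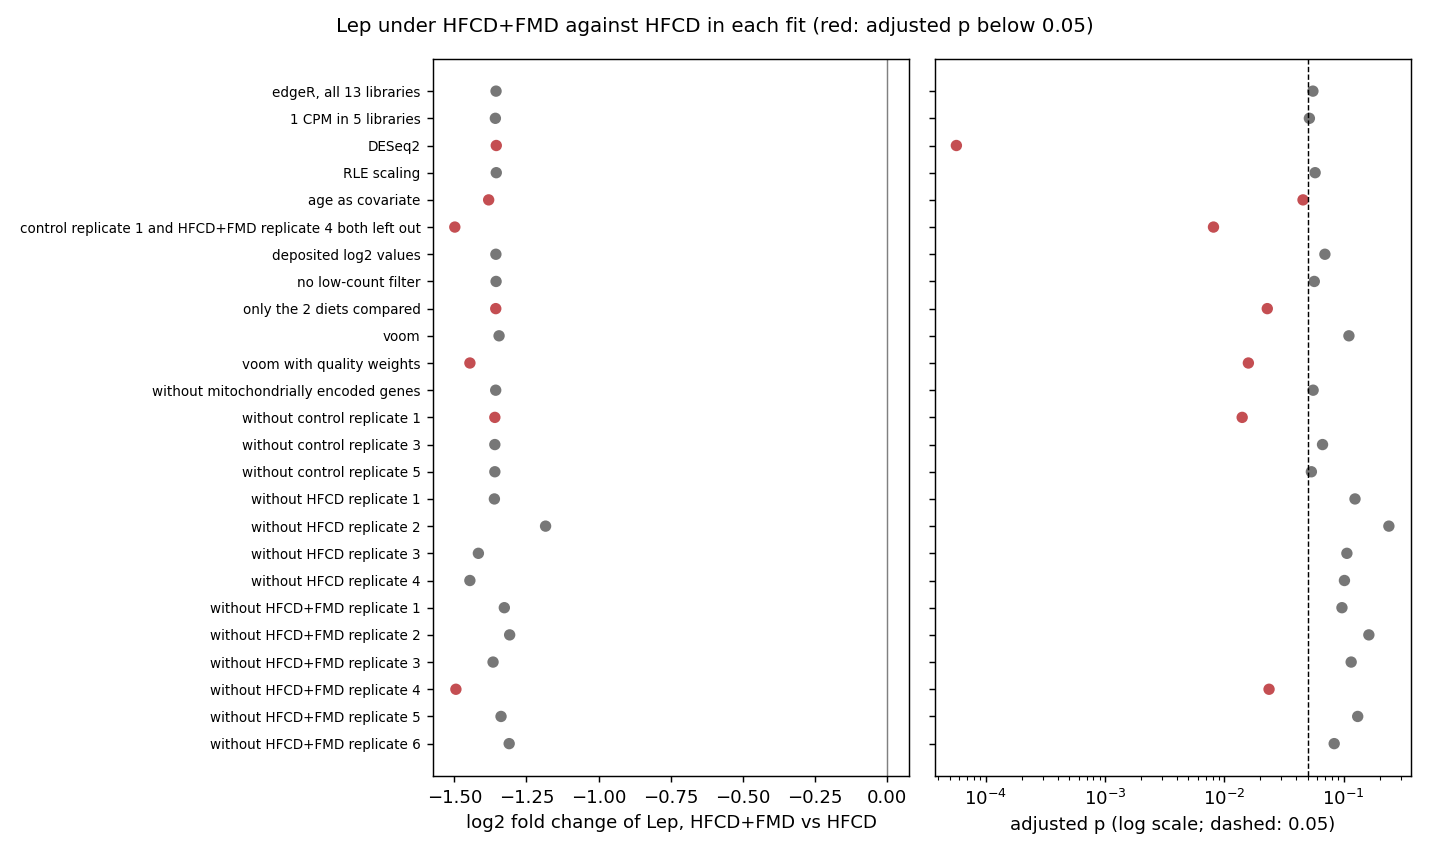
Lep in adipose tissue, HFCD+FMD against HFCD, in each of 25 fits: log2 fold change (left) and adjusted p on a log axis (right, dashed line at 0.05), one row per setting, red where the adjusted p is below 0.05. The fold change stays between -1.18 and -1.5 in all rows, whereas the adjusted p falls on either side of 0.05.

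The other 5 members overlapped between HFCD+FMD and HFCD. Hp had a lowest value of 861, a median of 1430 and a highest value of 1868 CPM in the 6 HFCD+FMD libraries, and edgeR put the difference from HFCD at -0.62 (log2, SE 0.24, adjusted p = 0.369). Retn ran from 192 through a median of 795 to 1160 CPM, and its log2 fold change was 0.63 (SE 0.38, adjusted p = 0.562). Cfd ran from 221 through 2166 to 3509 CPM, and differed by 0.79 (log2, SE 0.54, adjusted p = 0.610). All 3 of these lay on the side of the control diet, but within the spread between libraries. Rbp4, at 58.1 to 518 CPM with a median of 309, differed by 0.20 (log2, SE 0.45, adjusted p = 0.903) and Adipoq, at 1390 to 3365 CPM with a median of 2800, by 0.13 (SE 0.25, adjusted p = 0.890); the sign for Rbp4 turned in 3 of 24 other fits. A single library set the low end of most of these ranges: replicate 4 was the lowest HFCD+FMD library for Cfd, Retn, Rbp4 and Adipoq and the highest for Lep. Its Lep/Adipoq ratio of 0.706 lay within the HFCD range, whereas the other 5 libraries had 0.331, 0.216, 0.205, 0.190 and 0.189, below all HFCD and above all control libraries.

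**Figure D4:**
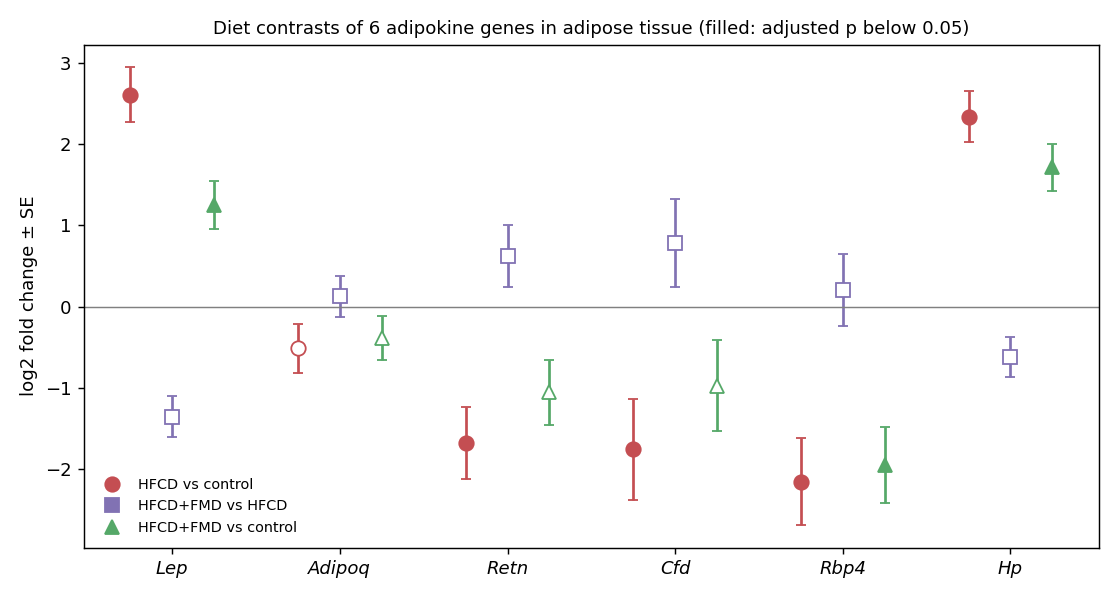
Log2 fold change with its SE (vertical axis) of the 6 adipokine genes in 3 adipose contrasts from 1 edgeR model; filled symbols have an adjusted p below 0.05. HFCD against control has 5 filled symbols, HFCD+FMD against HFCD has none, and HFCD+FMD against control has 3.

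Against the control diet, HFCD+FMD fat still differed in 3 of the 6 genes (19.7% of all genes passed; 10.5% higher, 9.25% lower), in a comparison that shares its libraries with those above. Hp was higher by 1.71 on the log2 scale (SE 0.29, adjusted p = 0.00392, edgeR), and all 6 HFCD+FMD libraries exceeded the highest control. Lep was higher by 1.25 (SE 0.30, adjusted p = 0.0154), again with all 6 above the highest control, whereas 21.0% of all genes did not overlap between these diets. Rbp4 was lower by 1.95 on this scale (log2 fold change -1.95, SE 0.47, adjusted p = 0.0157), and all 6 lay below the lowest control. Without control replicate 1, Lep (0.94, adjusted p = 0.0624) and Rbp4 (-1.76, adjusted p = 0.0779) no longer passed and Hp did (1.58, adjusted p = 0.0328). Retn was lower in all 6 libraries than in any control but did not pass (-1.06, SE 0.40, adjusted p = 0.0764); it passed without HFCD+FMD replicate 4 (-0.85, adjusted p = 0.0424) and with DESeq2 (0.0329). Cfd (-0.97, SE 0.56, adjusted p = 0.229) and Adipoq (-0.38, SE 0.27, adjusted p = 0.328) overlapped with control. In this comparison 6 of 15 adipocyte, 3 of 6 hepatocyte and 2 of 8 brown adipocyte markers fell, and 4 of 12 macrophage, 4 of 8 endothelial and 3 of 8 fibroblast and progenitor markers rose. The brown adipocyte markers again include control replicate 1, which stood apart in their sum. The part of these markers in the adipokine differences was not tested.

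Genes around the adipokines were read from 9 lists of receptors, partners, related factors and regulators, 104 of whose 114 genes were tested in adipose tissue. Of these, 25 rose and 12 fell on HFCD against control (35.6% of the 104, against 30.0% of all genes), and 17 rose and 8 fell on HFCD+FMD against control (24%, against 19.7%). Both shares lie near those over all genes. Between HFCD+FMD and HFCD none of the 104 passed edgeR's test, and 12 had an unadjusted p below 0.05 (11.5%, against 11.2% of all genes). DESeq2 called 2 of the 104, voom 0 and voom with quality weights 3, and of all 15112 genes they called 302 (2%), 60 (0.397%) and 472 (3.12%). The shares of all genes called on HFCD against control, 15.7% higher and 14.2% lower, stand as the background of each list below. Of the 37 called on HFCD, 15 kept the call in all 13 fits without 1 library; 22 calls were lost without adipose control replicate 1 and 15 without control replicate 3. For HFCD+FMD against control 5 of 25 calls were kept in all 13 fits.

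On the leptin side, the signalling list had 3 genes higher and 3 lower of 15 on HFCD (20% each, against 15.7% and 14.2% of all genes; list median -0.10, all-gene median -0.0014). Ptpn1, a phosphatase that dampens leptin and insulin signalling, rose by 0.80 (log2, edgeR, adjusted p = 0.00345), and Leprot, made from the leptin receptor locus, rose by 0.77 (adjusted p = 0.00523). Stat5a, a transcription factor of the JAK-STAT pathway, fell by 0.84 (adjusted p = 0.00785) and Irs1, the insulin receptor adaptor, fell by 1.60 (adjusted p = 0.0145; 0.0758 without control replicate 1). Lepr itself was low, at 6.04 ± 1.54 CPM (SD, n = 3) in control and 4.61 ± 1.44 (SD, n = 4) in HFCD libraries, and neither it (-0.39, adjusted p = 0.383) nor the feedback inhibitor Socs3 (-0.10, adjusted p = 0.812) passed.

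The adiponectin receptors did not pass. Adipor1 differed by 0.03 on the log2 scale (edgeR, adjusted p = 0.878), Adipor2 by -0.46 (adjusted p = 0.165) and Cdh13, the T-cadherin that binds large adiponectin complexes, by 0.19 (adjusted p = 0.733). In their list of 8 receptor and assembly genes none passed edgeR's test on HFCD against control, 2 had an unadjusted p below 0.05, and DESeq2, voom and voom with quality weights called 1, 0 and 2 of the 8 (35.2%, 25% and 37.8% of all genes). Of 7 paralogs of adiponectin 3 rose and none fell (median 0.74; 15.7% of all genes rose), namely C1qtnf1 (1.55, adjusted p = 0.00574), C1qtnf6 (1.42, adjusted p = 0.00395) and C1qtnf9 (0.74, adjusted p = 0.00616). C1qtnf9 was also higher on HFCD+FMD than on control (1.0, adjusted p = 0.00259).

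For resistin, 2 of 4 listed genes rose on HFCD (median -0.18; 15.7% of all genes rose), among them Cap1, a proposed resistin receptor (0.62, adjusted p = 0.0312, edgeR), whose call was lost without control replicate 1 (0.124), control replicate 3 (0.0830), HFCD replicate 3 (0.0582) or HFCD replicate 4 (0.0778). In the complement list 3 of 12 rose (25%, against 15.7% of all genes) and none fell (median 0.74). C3ar1, the receptor of the C3a fragment and a gene of myeloid cells, rose by 3.06 (adjusted p = 0.0103), beside the macrophage marker sums given above; their part in it was not tested. C3, the substrate of the cascade (-0.55, adjusted p = 0.270), and Cfb, the factor that Cfd cleaves (1.49, adjusted p = 0.0754, at 1.60 ± 0.76 against 0.53 ± 0.41 CPM, SD, n = 4 and 3), did not pass. Cfb did pass without control replicate 5 (0.0460) or HFCD+FMD replicate 6 (0.0496), with the deposited log2 values (0.0387) and with DESeq2 (0.0390).

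Retinol handling genes had 2 higher and 2 lower of 14 on HFCD (14.3% each, near the 15.7% and 14.2% of all genes; median -0.08). Rbp7, an intracellular retinol carrier, fell by 1.29 (edgeR, adjusted p = 0.0285) but did not pass without control replicate 1 (0.0678), control replicate 3 (0.12) or HFCD replicate 1, 3 or 4 (0.0554 to 0.0651). On HFCD+FMD against control Rbp7 (-1.78, adjusted p = 0.00781) and Aldh1a1, a retinaldehyde dehydrogenase (-0.83, adjusted p = 0.0120), were both lower. Ttr, whose protein carries Rbp4 in plasma, had a median of 0.259 CPM over the adipose libraries and a highest value of 10.98 CPM in control replicate 3. Its log2 fold change on HFCD was -1.15 (SE 1.38, adjusted p = 0.550), and 3.10 without that library (adjusted p = 0.218). Of the genes that clear haemoglobin and haem, 5 of 9 rose on HFCD and none fell (median 0.97; 15.7% of all genes rose), among them Lrp1, the receptor of haem bound to haemopexin (0.97, adjusted p = 0.00318), and Ftl1, the ferritin light chain (1.0, adjusted p = 0.0118). Cd163, the macrophage receptor for haptoglobin bound to haemoglobin, did not pass (-1.38, adjusted p = 0.0798), but did without control replicate 1 (-1.80, adjusted p = 0.0387) and with DESeq2 (0.0329).

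Among other adipokines, 7 of 21 rose (33.3%, against 15.7% of all genes) and 3 fell (14.3%, near the 14.2% of all genes) on HFCD (median 0.71). Rarres2, which encodes chemerin, rose by 1.17 (adjusted p = 0.00655, edgeR), Grn, which encodes progranulin, by 1.29 (adjusted p = 0.00849) and the cytokine gene Tnf by 2.35 from a very low level (0.32 ± 0.03 CPM in control, n = 3; 1.67 ± 0.19 in HFCD, n = 4, SD; adjusted p = 0.00529). Nampt, an enzyme of NAD synthesis also known as visfatin, fell by 0.87 (adjusted p = 0.00627). On HFCD+FMD against control Rarres2 (0.97, adjusted p = 0.0181) and Tnf (2.44, adjusted p = 0.00694) were higher too. Of the transcription factors listed as regulators of adipokine genes, none of 14 rose and 4 fell on HFCD (28.6%, against 14.2% of all genes; median -0.24). Foxo1, which acts on adipocyte metabolic genes, fell by 1.13 (adjusted p = 0.00396). Pparg, the master factor of fat cell differentiation, fell by 0.61 (adjusted p = 0.0388, edgeR). It did not pass without control replicate 1 (0.210), control replicate 3 (0.0914), any 1 HFCD library (0.0531 to 0.0900) or HFCD+FMD replicate 2 (0.0511). The Pparg call was lost too with only the 2 diets compared (0.0528) and with the deposited log2 values (0.0508). It was also lost with control replicate 1 and HFCD+FMD replicate 4 both left out (0.186). Cebpa, which encodes a C/EBP factor, did not pass (-0.37, adjusted p = 0.327).

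The genes whose profile over the 13 adipose libraries was nearest to each member were found among 12874 genes as those with the smallest root mean square difference of centred log2 CPM, a description in which all genes share the same libraries. Nearest to Lep was Plekha7, a protein of cell junctions (0.28, where the profile of Lep itself had a root mean square of 1.05), followed by Map1a, Lamb3, Gask1b and Gpc1. Nearest to Hp were Irf8 (0.32), Ppfia4, Fam174b, Sptb and Nup210. Retn was nearest to Car3, an abundant carbonic anhydrase of adipocytes (0.23), then to Maob, Eci3, Slc2a12 and Gpt2, and Rbp4 to Morn4 (0.31), Scd1, Ntsr2, Orm1 and Hectd2os. Cfd had no neighbour as close: Fn3k (0.47) came first and Retn (0.49) second, before Tafa5, Gsta4 and Eci3. Adipoq, with the flattest profile (0.42), was nearest to Smim27 (0.17), Trap1, Auh, Bckdha and Aldh5a1. Between members, Retn and Rbp4 differed by 0.44, Lep and Hp by 0.56 and Lep and Rbp4 by 2.06.

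In heart the 5 measured adipokines were at low levels. Mitochondrially encoded genes took 21.8% to 32.6% of counts in heart control libraries, 36.4% to 71.5% in HFCD (59.8% in replicate 5) and 29.5% to 62.0% in HFCD+FMD. Their part in the heart values was not tested. Cfd had 29 to 205 counts in the 5 control hearts and 839 in HFCD replicate 5, whereas HFCD replicates 1 to 4 and all HFCD+FMD libraries held 0 to 15 counts of each of the 5. Libraries with no count allow up to 3 counts, and the floors were 0.0525 CPM for Retn in HFCD+FMD replicate 2, 0.108 and 0.146 CPM for Rbp4 in HFCD replicate 1 and HFCD+FMD replicate 1, and 0.160 CPM for Hp in HFCD+FMD replicate 3. These floors cover counting error only. Libraries fall into 3 sets whose per-gene term had been removed from the deposited log2 values, and what the sets stand for is not stated in the labels. Set A joins HFCD replicates 1 to 4 with control replicates 2, 3 and 5. HFCD+FMD replicate 1 shares set B with control replicates 4 and 6. In set C, HFCD replicate 5 stands with HFCD+FMD replicates 2, 3 and 5. The single HFCD library of set C was also the one that stood apart.

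Adipsin was measured at 1.02, 1.28, 1.5, 5.37 and 2.61 CPM in heart control replicates 2 to 6, at 0.108, 0.112, 0.317, 0.449 and 27.9 CPM in HFCD replicates 1 to 5 and at 0.195, 0.122, 0.374 and 0.22 CPM in HFCD+FMD replicates 1, 2, 3 and 5. HFCD replicate 5 was far above all other hearts, and the other 4 HFCD and all 4 HFCD+FMD libraries were below every control. Adipoq had the same outline, at 0.457, 0.442, 0.591, 3.01 and 1.22 CPM in control, 0.0722, 0.112, 0.238, 0.389 and 9.31 CPM in HFCD and 0.0975, 0.0875, 0.321 and 0.0942 CPM in HFCD+FMD libraries. Hp was at 0.528, 0.221, 0.227, 2.10 and 1.01 CPM in control, 0.180, 0.187, 0.238, 0.329 and 28.2 CPM in HFCD, and 0 to 0.210 CPM in HFCD+FMD libraries. The Hp of HFCD replicates 3 and 4 thus lay within the control range, and that of replicates 1 and 2 just below it. Retn ran from 0.141 to 1.31 CPM in control libraries, from 0.0361 to 0.238 in HFCD replicates 1 to 4, 2.23 in HFCD replicate 5 and 0 to 0.0975 in HFCD+FMD libraries. Rbp4 ran from 0.176 to 0.681 CPM in control libraries, from 0 to 0.317 in HFCD replicates 1 to 4, 1.56 in HFCD replicate 5 and 0 to 0.160 in HFCD+FMD libraries. Apart from that one HFCD library, control replicate 5 was the highest heart library for every one of the 5.

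**Figure D5:**
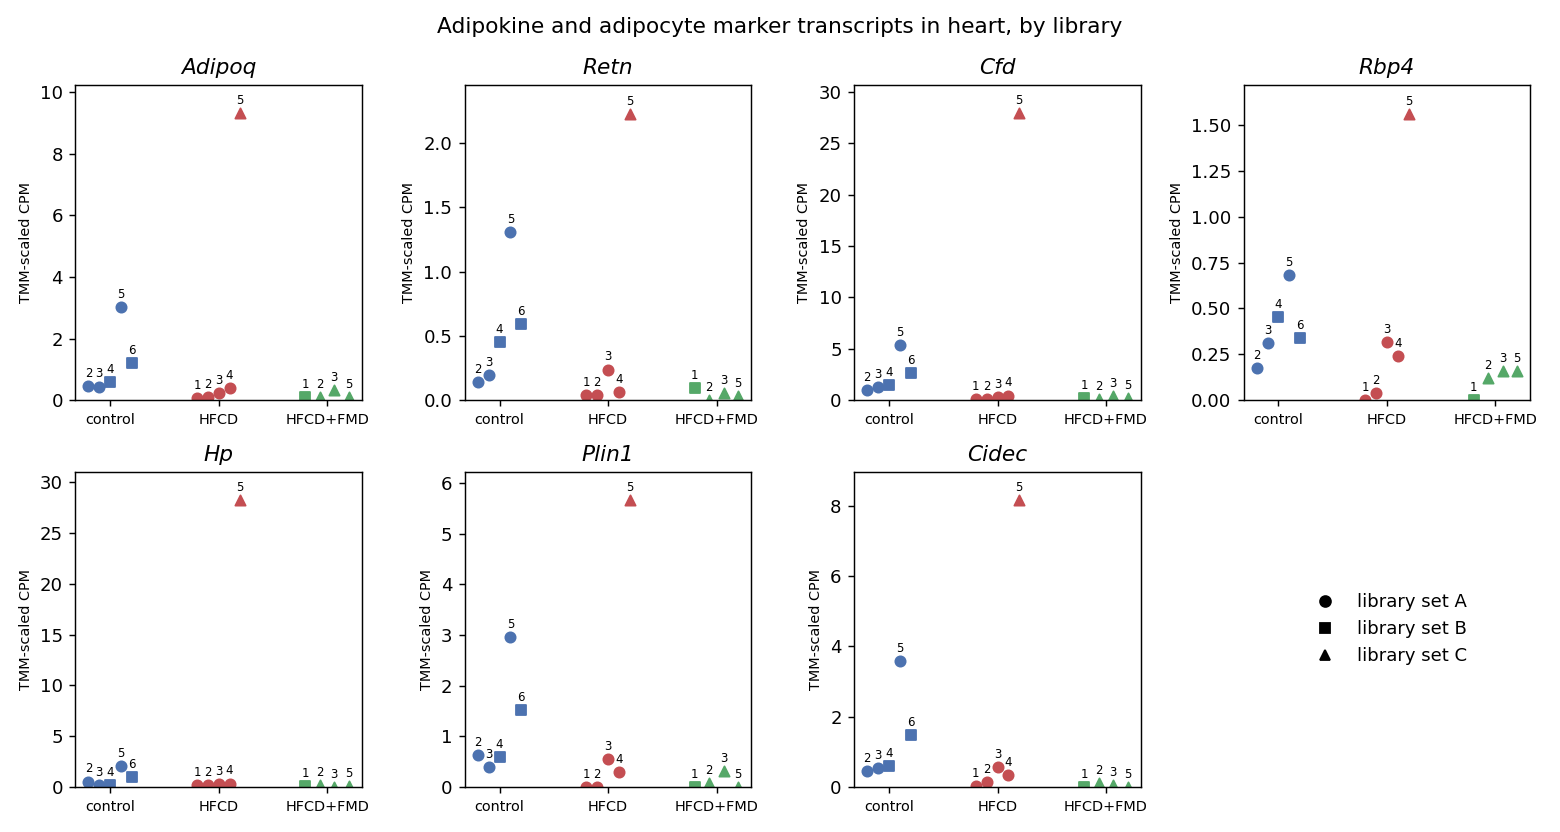
TMM-scaled CPM (linear axes from 0 that differ between panels) of 5 adipokine genes and of the fat cell genes Plin1 and Cidec in each heart library, by diet; symbols give the library set and numbers the replicate name. HFCD replicate 5 is the highest library in all 7 panels and control replicate 5 the next.

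The fat cell genes Plin1 and Cidec, of the lipid droplet coat, were named after their values were seen. They had the same 2 highest heart libraries as the adipokines. Plin1 was at 5.65 CPM in HFCD replicate 5, 2.96 in control replicate 5 and 0 to 1.51 elsewhere, and Cidec at 8.15, 3.59 and 0 to 1.47 CPM, against 1389 to 3313 and 1565 to 3812 CPM in fat. In the whole list, 13 of 15 adipocyte markers were measured in heart, and their sum was 4279 CPM in HFCD replicate 5 and 2116 to 3383 CPM in the other 13 libraries. Of the 13, 7 were highest in HFCD replicate 5, and among these only Plin1, Cidec and Pck1 had control replicate 5 next. Fabp4, Mrap and Sncg were highest in control replicate 2, Plin4 and Trarg1 in HFCD replicate 2 and Pde3b in HFCD replicate 3. Control replicate 5 was thus not high in every marker of the list. Cd36, a fatty acid carrier in that list, was at 1190 to 2403 CPM in every heart library, whereas Plin1 was at 0 in 4 libraries and Cidec in 2. HFCD replicate 5 also had the highest macrophage sum (471 CPM, others 175 to 302) and the highest sum of the 2 measured neutrophil markers (12.1 CPM, others 0.294 to 1.85). Its B and plasma cell (43.8 CPM, others 4.24 to 13.1), mesothelial (17.5, others 4.29 to 13.3) and endothelial sums (979, others 624 to 901) were highest too. Fibroblast, T cell, brown adipocyte, skeletal muscle and red blood cell sums lay within the range of the others. HFCD replicate 5 had the lowest cardiomyocyte sum (30754 CPM, others 39918 to 63360). It is the only library used here that is labelled 22 months old. The part of these in the adipokine values was not tested.

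With the library sets in the model, no adipokine passed in heart on HFCD against control. In edgeR 0 of 13230 genes (0%) passed and 1687 had an unadjusted p below 0.05, among them all 5 adipokines; 61 genes passed with DESeq2, 0 with voom and 226 when voom had quality weights, of which 0, 0 and 1 were adipokines. DESeq2 gave an adjusted p for only 1 of the 5, Rbp4, in each heart comparison. Fitted log2 fold changes of the 5 ran from -2.88 (Cfd, SE 0.81) to -1.59 (Rbp4, SE 0.69), all with an adjusted p from 0.367 to 0.385, and 4 of the 5 turned positive in a fit with no set term. Within set A the measured Cfd was 1.02 to 5.37 CPM in control and 0.108 to 0.449 CPM in HFCD libraries and Adipoq 0.442 to 3.01 and 0.0722 to 0.389 CPM, without overlap (9.51% of all genes were lower in this way within set A), whereas Retn, Rbp4 and Hp overlapped. The Adipoq gap, from 13 counts in HFCD replicate 4 to 20 in control replicate 3, was too small for such counts to resolve. Without HFCD replicate 5 Cfd had a log2 fold change of -3.37 and Adipoq one of -2.65. Both had an adjusted p of 0.289 (edgeR), and again 0 genes passed.

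On HFCD+FMD against HFCD in heart, Cfd (-6.24, SE 0.99, adjusted p = 0.0392, edgeR) and Hp (-7.56, SE 0.96, adjusted p = 0.0113) passed, as did 0.106% of genes. HFCD replicate 5 was the only link of set C to another diet. Without it the contrast rested on HFCD+FMD replicate 1 alone, so that fit could not decide these calls. Cfd was then fitted at -0.02 and Hp did not pass the count filter. The Hp call was lost without HFCD+FMD replicate 2 (0.0901), 3 (0.102) or 5 (0.127). The Cfd call was lost without those (0.156, 0.180 and 0.128) and without control replicate 3 (0.0574) or 6 (0.0713) or HFCD replicate 2 (0.0592) or 4 (0.0560). On HFCD+FMD against control Cfd (-9.13, SE 1.19) and Hp (-9.40, SE 1.18) passed (edgeR, adjusted p = 0.0155 each), as did 0.0227% of genes. Without HFCD replicate 5 this contrast too rested on HFCD+FMD replicate 1 alone, and Cfd was fitted at -3.38. Both calls were lost without HFCD replicate 2 (0.0522 each) or HFCD+FMD replicate 2 (0.0664), 3 (0.0833) or 5 (0.0569). The fitted sizes include the set terms. In measured values, mean Cfd was 2.36 ± 1.79 CPM (SD, n = 5) in control and 0.228 ± 0.106 CPM (SD, n = 4) in HFCD+FMD hearts. All 5 adipokines were lower in each HFCD+FMD heart than in any control heart, a separation shown by 4.26% of all genes in this direction. For Hp, Rbp4, Retn and Adipoq the gap was too small for such counts to resolve. Retn had 2 counts (0.0975 CPM) in HFCD+FMD replicate 1 and 4 (0.141 CPM) in control replicate 2. Adipoq had 6 counts (0.321 CPM) in HFCD+FMD replicate 3 and 20 (0.442 CPM) in control replicate 3. Hp had 12 counts (0.210 CPM) in HFCD+FMD replicate 2 and 10 (0.221 CPM) in control replicate 3. Rbp4 had 3 counts (0.160 CPM) in HFCD+FMD replicate 3 and 5 (0.176 CPM) in control replicate 2. With no set term none of the 5 passed (Cfd -3.48, adjusted p = 0.233, edgeR), 0 genes in all did, and the libraries of these 2 diets share only set B. There HFCD+FMD replicate 1 had 0.195 CPM of Cfd and the 2 control libraries 1.5 and 2.61.

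The difference between tissues was tested in a joint edgeR fit of 27 libraries and 12606 genes. The study's design names 18 mice, so some adipose and heart libraries come from the same animals; the labels do not say which, and the fit treats all libraries as independent. For HFCD against control, the Hp change was higher in adipose tissue than in heart by 4.20 on the log2 scale (SE 0.80, adjusted p = 0.00181), the only 1 of 5 members to pass, where 17% of genes did. It was 4.33 (adjusted p = 0.00156, with 18.2% of genes passing) without heart HFCD replicate 5, but -0.48 (adjusted p = 0.817) with no set term, so its direction changed with that term. For HFCD+FMD against HFCD, Cfd (7.10, adjusted p = 0.00710), Hp (6.95, adjusted p = 0.000536), Adipoq (5.72, adjusted p = 0.00660) and Retn (6.12, adjusted p = 0.0375) passed, where 0.214% of genes did. Without heart HFCD replicate 5 the heart side rested on HFCD+FMD replicate 1 alone, so that fit could not decide these calls. With no set term 0 adipokines passed. Without heart HFCD+FMD replicate 2, Adipoq (0.0620), Cfd (0.0726) and Retn (0.180) did not pass, and without replicate 5 neither Cfd (0.0505) nor Retn (0.118) did. Retn was lost too without heart HFCD+FMD replicate 3 (0.0866), any 1 adipose HFCD library (0.0528 to 0.0885) or adipose HFCD+FMD replicate 2, 3 or 5 (0.0530 to 0.0603).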

How the data were processed

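The submitters' processing notes name STAR 2.5.3, mm10, R 3.5.3, edgeR and limma; the read counter is not given in the sources used here. For each tissue the deposited tables hold raw counts for every gene (integers) and log2 CPM; the heart log2 table had lost 1 term per gene shared within each of 3 library sets (to within 9.8e-09). Of 34 labelled libraries, 27 had columns and 7 were not analysed here. Counts were fitted in R 4.3.3 with edgeR 4.0.16 (robust quasi-likelihood F-test, two-sided, TMM, filterByExpr, Benjamini-Hochberg over all genes, false discovery rate 0.05), 3 diets in 1 model per tissue, with the library set as a factor in heart and in the joint fit of both tissues, where tissues were treated as independent. The filter kept 15112 of 15145 adipose and 13230 of 13238 heart genes; no per-sample column was left out. Levels are TMM-scaled CPM and, between genes, CPM per kilobase of GENCODE M21 exon. Log2 fold changes are edgeR's, with SE taken from the F statistic.

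The 6 members and the gene lists were chosen with earlier results of these data known. The genes to name were, by rule, the 6 members, 13 receptors and partners whatever the result (Stra6, one of them, was not analysed here), up to 4 genes with the smallest p among those that passed in each list and adipose comparison with a mean level of 1 CPM or more in either diet, and the 5 genes nearest each member; the text gives a selection of the third kind, and Plin1, Cidec and Cd36 were named after their values were seen. Alternatives were DESeq2 1.42.0, other count filters, limma 3.58.1 voom (plain, and weighting libraries by quality), RLE scaling, an age term, 2 diets only, the deposited log2 values, no set term and leaving out each library; leaving out mitochondrially encoded genes, or adipose control replicate 1 with HFCD+FMD replicate 4, was added after seeing the data. On simulated adipose counts of 15112 genes the test recovered 55% of changes of size 1 and 84% of size 2 (log2) for HFCD against control, and 69% and 92% for HFCD+FMD against HFCD. Only 100 genes were changed at each size, whereas 4532 were called in the measured HFCD against control comparison. The adjusted p depends on how many genes change, so recovery in the measured data may differ.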

Additional observations from a re-analysis of the deposited data

Results flagged for a closer look

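A library far from the others of its diet was looked for in each group of 4 to 10 libraries with Dixon's criterion at 95%, which chance meets in about 1 of 20 groups; 7 of the 27 member groups examined met it. In adipose tissue 1 value did so, Lep in HFCD+FMD replicate 4 at 2386 CPM, where the other 5 libraries held 1363 to 1678 CPM. In heart HFCD replicate 5 stood apart in all 5 members, with Adipoq at 9.31, Cfd at 27.9, Hp at 28.2, Rbp4 at 1.56 and Retn at 2.23 CPM. In heart HFCD+FMD replicate 3, Adipoq was at 0.321 CPM, from 6 counts. Lep in adipose HFCD+FMD replicate 4 moved opposite to Cfd, Retn, Rbp4 and Adipoq in the same library, which were the lowest of their group.

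Diet effects that differed between adipose tissue and heart in the joint edgeR fit were those of Hp for HFCD against control (4.20, adjusted p = 0.00181) and of Cfd (7.10, adjusted p = 0.00710), Retn (6.12, adjusted p = 0.0375), Hp (6.95, adjusted p = 0.000536) and Adipoq (5.72, adjusted p = 0.00660) for HFCD+FMD against HFCD, in log2 units and adipose minus heart. Without heart HFCD replicate 5 the 4 for HFCD+FMD against HFCD could not be decided, since their heart side then rested on HFCD+FMD replicate 1 alone. None of the 5 was called with no set term.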

How the results depend on the processing

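No paired analysis was possible because the labels give no replicate numbers, and those used here follow accession order. Of the single-gene values under the alternatives, 1712 kept direction and side of the threshold, 40 newly passed, 94 no longer passed and 20 changed sign; the cause was not tested unless stated. Heart and joint values depend on the set term and on single libraries, among them heart HFCD replicate 5, and low heart counts limit all 5 adipokines there. Without heart HFCD replicate 5, heart and joint fits with a set term compare HFCD+FMD through its replicate 1 alone. Calls lost in those fits decide nothing about that library.

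With no set factor, heart HFCD against control turned to 0.84 for Adipoq, 1.304 for Cfd, 2.83 for Hp and 0.16 for Rbp4, and the tissue difference in HFCD against control to -1.35 for Adipoq, -3.05 for Cfd, -0.48 for Hp and -1.68 for Retn. Without 1 library that difference ran from -0.038 (without heart control replicate 5) to 1.73 for Cfd, from -1.05 (without the same library) to 1.26 for Retn and from -1.12 to 0.222 (without heart HFCD replicate 4) for Rbp4. In adipose tissue Rbp4 for HFCD+FMD against HFCD turned to -0.10 with the deposited log2 values, -0.12 with voom, and ran from -0.012 (without HFCD+FMD replicate 3) to 0.42 without 1 library. For HFCD against control Adipor1 turned to -0.032 without control replicate 3 and -0.026 without control replicate 5. Socs3 turned to 0.091 with voom quality weights and ran from -0.28 to 0.36 without 1 library (positive without control replicate 5 or HFCD replicate 1), and Ttr from -3.45 to 3.10 (without control replicate 3).

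Adipokines called in adipose tissue for HFCD against control numbered 5 (4, without Cfd, with age as covariate, the deposited log2 values or voom), and 3 to 5 without 1 library; all genes called numbered 4532, and 2348 (without control replicate 1) to 4854. Between HFCD+FMD and HFCD the 0 adipokines became 1 with DESeq2, 1 with age as covariate, 1 with control replicate 1 and HFCD+FMD replicate 4 both left out, 1 with only the 2 diets compared and 1 with voom quality weights, and 0 to 1 without 1 library; the 31 genes became 302 with DESeq2, 114 with both libraries left out, 60 with voom and 472 with voom quality weights, and 5 (without HFCD replicate 4) to 80 (without HFCD+FMD replicate 4). Against control, HFCD+FMD's 3 adipokines became 1 (without control replicate 1) to 4, and the 2978 genes became 623 with both libraries left out, 1834 with only the 2 diets compared, 1916 with voom and 663 to 3500 without 1 library.

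In heart fewer than the 5 adipokines were tested under some alternatives: 1 (Rbp4) with DESeq2, 1 with 1 CPM in 5 libraries, 3 without HFCD replicate 5 or control replicate 5, 4 without control replicate 4 or 6, and, with only the 2 diets compared, 3 against control but none between HFCD+FMD and HFCD, which gives no value for the adipokines there. HFCD against control had 0 adipokines and 0 genes called, and 0 to 0 of either without 1 library; voom quality weights gave 1 adipokine and 226 genes, DESeq2 61 genes and the deposited log2 values 51. For HFCD+FMD against HFCD the 2 adipokines became 0 with a minimum of 1 CPM in 5 libraries, no set factor or voom quality weights. They became 1 with DESeq2, with age as covariate or with voom. The deposited log2 values, from which set terms had already been removed, gave 5. The range without 1 library was 0 (without HFCD+FMD replicate 2, 3 or 5) to 5 (without HFCD+FMD replicate 1). The 14 genes became 0 with 1 CPM in 5 libraries, 279 with DESeq2, 2 with age, 1328 with the deposited values, 0 with no set factor and 268 with only the 2 diets compared, and 0 to 368 without 1 library. For HFCD+FMD against control the 2 adipokines became 1 with 1 CPM in 5 libraries, 1 with DESeq2, 1 with age, 1 with voom, 5 with the deposited values, 0 with no set factor and 0 with only the 2 diets compared, and 0 to 5 without 1 library; the 3 genes became 1 with 1 CPM in 5 libraries, 145 with DESeq2, 1193 with the deposited values, 0 with no set factor, 0 with only the 2 diets compared, 1 with voom and 26 with voom quality weights, and 0 to 217 without 1 library.

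In the joint fit the 1 adipokine whose HFCD effect differed between tissues became 0 with no set factor and stayed 1 to 1 without 1 library, and the 2146 genes became 1154 to 2358. The 4 adipokines for HFCD+FMD against HFCD became 0 with no set factor and 0 to 5 without 1 library, and the 27 genes became 128 with DESeq2, 2 with no set factor and 0 to 164 without 1 library.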
